A study of Mus musculus with 8 samples.

Results

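The comparison set 3 libraries of mouse bone marrow adipocyte cultures labelled GC against 2 labelled Control, 5 of the 8 libraries of the series. Libraries were chosen by their labels alone. All cultures were wild type (WT). Bone marrow stem cells were driven to adipocytes with the StemPro adipogenesis kit for 14 days, and GC cultures then received dexamethasone (DEX, a synthetic glucocorticoid) at 1e-06 M for 24 hours. No agent is named for Control beyond the differentiation step, and the sources used here do not say whether the kit itself holds a glucocorticoid. Another 3 libraries also received GW9662, an inhibitor of PPARγ. They entered the estimate of the spread, the expression filter and the alternative scalings, and no change was read from them. RNA was amplified as full-length cDNA (Smart-Seq2). Nothing in the labels says that replicates are separate cultures. The p-values therefore reflect only how far these samples differed from each other, and that spread may be technical.

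Glucocorticoids enter cells and bind the glucocorticoid receptor, which is held in the cytosol by heat shock chaperones. The bound receptor moves to the nucleus, where it switches on genes such as Fkbp5, Tsc22d3, Per1 and Zbtb16 and represses many inflammatory genes. In marrow, glucocorticoids are known to favour fat cell formation over bone formation, and dexamethasone is a usual part of adipogenic culture media.

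Expression is given as TPM (a measure of transcript abundance, reads per gene length brought to 1 shared total in every library), in replicate order within each group. Changes are GC minus Control on log2(TPM + 1) with a standard error (SE), a scale that understates the change of low genes. A gene is said to rise or fall where limma gave a Benjamini-Hochberg adjusted p below 0.05 over all 14985 tested genes, those with at least 1 TPM in at least 2 of the 8 libraries. Since TPM sums to a fixed total, counts whose balance moved are also given after median-ratio scaling, which divides a library by the median of its gene ratios to an average library. Counts and medians called scaled below are those after median-ratio scaling. Single genes named below passed the same way on both scalings unless stated.

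Library facts moved with the labels. The steps between low TPM values placed the depth at 21389227 to 34394661 reads, lowest in GC replicate 1. This estimate covers only genes whose coordinates matched the annotation used for exon lengths. Such genes held 82.4% to 82.6% of the TPM in GC and 91.2% to 91.3% in Control, so depths of the 2 groups compare only roughly. In GC, Fth1 alone made up 13.3% to 13.5% of the TPM total, while it made up 3.69% and 3.77% in Control, and mitochondrially encoded genes took 1.44% to 1.49% of the TPM in GC and 3.55% to 3.69% in Control. Control libraries correlated with each other at 0.994 over genes and GC libraries at 0.947 to 0.989. GC replicate 1 stood apart within its group by exon length, as described with the length plot at the end. List values with the exon-length trend removed are given there, and the part of the other facts in the changes below was not tested.

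Defining genes of fat cells were present in Control. Adipoq, the hormone adiponectin, stood at 173 and 167 TPM in Control and 4.96, 2.49 and 3.68 TPM in GC. Plin1, a coat protein of the lipid droplet, stood at 36.8 and 35.4 TPM in Control and 0.213, 0.117 and 0.0858 TPM in GC. None of 9 tested adipocyte hormone and surface protein genes rose and 8 fell (median -1.47, scaled 1 higher and 6 lower with median -1.14). Of the 10 marker genes of adipocytes 9 were tested, 8 fell and none rose, and Lep, the hormone leptin, was listed at 0 in all 5 libraries. Macrophage genes were abundant beside them, so the cultures were not adipocytes alone. In bulk RNA, fewer cells of a type and less RNA per cell cannot be told apart.

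More genes fell than rose. Of the tested genes 16.2% rose (2428) and 39.1% fell (5863), and the median over all genes was -0.38. Median-ratio scaling moved that median to 0.05 and gave 27.4% higher (4112) and 26.5% lower (3970), so the balance of rises and falls depended on the scaling. No gene passed in opposite directions on the 2 scalings, which could hardly occur, since scaling moved genes upward in GC against Control. For the same reason, passing on both scalings adds little for a rise. Rises and falls in the gene groups below can be read against 16.2% and 39.1%, and scaled counts against 27.4% and 26.5%. Both scalings called 2426 genes higher (16.2%) and 3970 lower (26.5%). All GC libraries lay above both Control libraries for 22.2% of genes and below both for 49.7%, the background for the statements on overlap below. Of the genes called on both scalings, 19 rose and 61 fell by at least 5 log2 units on the deposited scale. On that scale 1055 rises and 166 falls were smaller than 1 log2 unit. A fall also had to pass after the upward shift, so few small falls could be counted. These numbers therefore do not compare rises with falls in size.

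**Figure D1:**
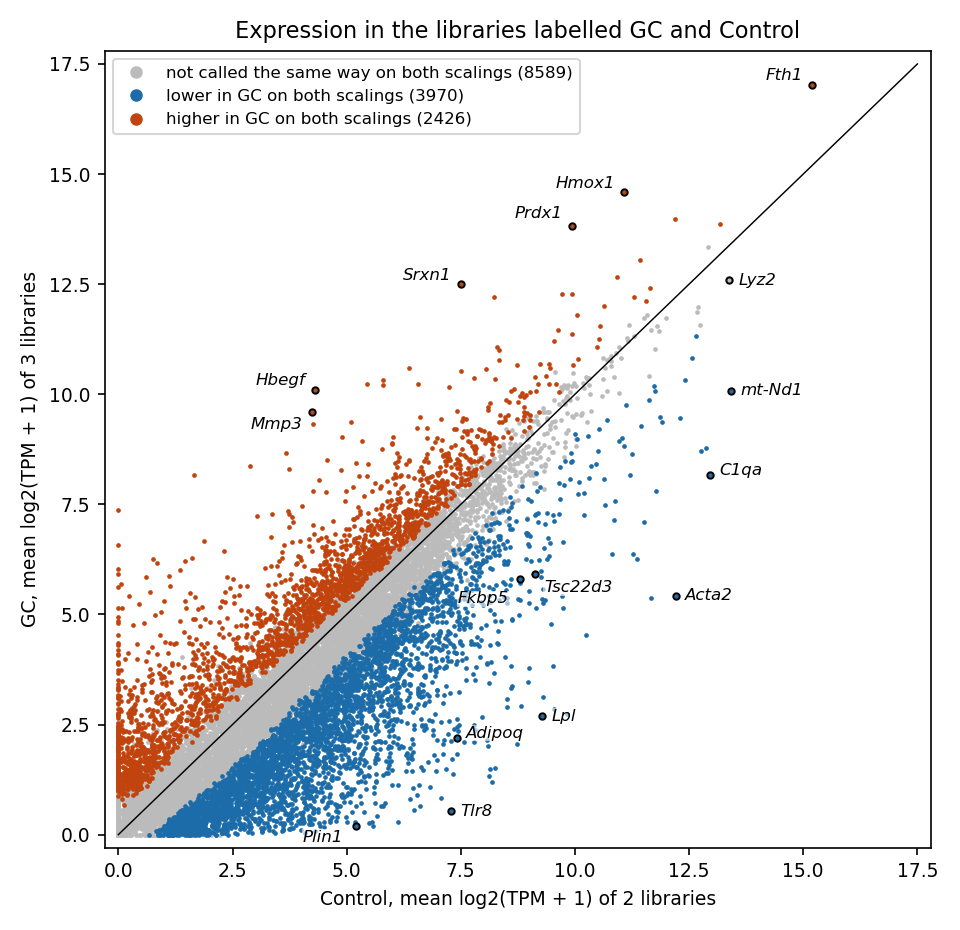
Mean log2(TPM + 1) of the 3 GC libraries (vertical) against that of the 2 Control libraries (horizontal), 1 point per tested gene, with the diagonal marking equal levels. Orange points are the 2426 genes higher in GC on both scalings and blue points the 3970 lower, and Srxn1 and Fth1 lie above the diagonal while Fkbp5, Tsc22d3 and Adipoq lie below it.

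The kinds of transcript differed in balance. Of 12128 protein-coding genes 1739 rose and 5532 fell (median -0.56, scaled 3187 higher and 3793 lower). Small RNAs and noncoding transcripts had more rises than falls on both scalings: 26 of 62 small nucleolar RNA genes rose and none fell (median 1.15), as did 29 of 48 small nuclear RNA genes, with 2 falling (median 1.75). Among antisense transcripts 138 of 329 rose and 42 fell, and among lincRNAs 108 of 268 rose and 63 fell (scaled 125 higher and 37 lower). Smart-Seq2 marks no strand, so an antisense transcript and its partner gene cannot be told apart, and reads of small nuclear RNAs can be shared among their many near-identical copies. Short genes as a whole also stood higher in GC than long ones (median change 0.18 in the shortest bin and -1.09 in the longest). The part of that trend in the small RNA rises was not tested. How well the library method captures such small RNAs was not tested either, so their TPM may not reflect RNA levels.

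The receptor's gene and most genes that a glucocorticoid is known to induce were not higher in the libraries labelled GC. Nr3c1, the glucocorticoid receptor, stood at 35.8 and 32.3 TPM in Control and 6.56, 24.00 and 17.96 TPM in GC. All GC libraries lay below both Control libraries and GC replicate 1 was lowest. The change (-1.19 ± 0.44, limma adjusted p = 0.047) was a call that ended under 16 of the 22 alternatives, among them median-ratio scaling (-0.66) and leaving out either Control library. Of 20 tested genes for the receptor and its partners 1 rose and 9 fell (median -0.71, scaled 2 higher and 6 lower with median -0.17). Without GC replicate 1 the same list gave 3 rises and 9 falls. The coactivator gene Ncoa1 changed by -2.32 ± 0.31 and the corepressor gene Ncor1 by -2.01 ± 0.34. Hsd11b1, which makes active glucocorticoid inside cells, did not pass (-0.19 ± 0.42, 5.77 and 3.60 against 5.31, 3.51 and 3.10 TPM), while H6pd, which feeds it NADPH, fell (-2.06 ± 0.27).

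Classical target genes stood highest in the libraries labelled Control. Fkbp5, a cochaperone that dampens the receptor, lies on chromosome 17 and stood at 463 and 429 TPM in Control and 32.5, 80.3 and 62.8 TPM in GC. Tsc22d3, which encodes the anti-inflammatory protein GILZ, stood at 572 and 543 TPM in Control and 50.9, 65.4 and 62.7 TPM in GC. Zbtb16, a transcription factor, stood at 17.2 and 16.98 TPM in Control and 0.196, 0.710 and 0.205 TPM in GC. For these 3 genes every GC library lay below both Control libraries, and the changes were -3.002 ± 0.33, -3.21 ± 0.13 and -3.74 ± 0.22, with limma adjusted p of 1.4e-04, 8.7e-07 and 5.1e-06. This is the opposite of their known response to dexamethasone, so every direction given here rests on the labels of the libraries. Klf9, a target and transcription factor, stood at 111 and 99.01 against 23.04, 62.6 and 46.4 TPM in Control and GC, and its fall (-1.35 ± 0.36, limma adjusted p = 0.013) was lost without Control replicate 1 or 2 and with the 5 libraries fitted alone. Per1, a clock gene with a receptor site, stood at 33.9 and 34.4 against 11.3, 24.9 and 19.3 TPM, and its fall (-0.92 ± 0.28, limma adjusted p = 0.025) ended after median-ratio scaling (-0.37) and without either Control library. Sgk1, a kinase that regulates sodium channels, overlapped between the groups at 440.5 and 437 against 441, 353 and 375 TPM and passed only without GC replicate 1.

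Of all 26 tested glucocorticoid-induced genes 5 rose and 16 fell (median -1.02), and median-ratio scaling gave 8 higher and 13 lower (median -0.46). Those that rose were Cdkn1c, a cell cycle inhibitor (2.77), Dusp1, a phosphatase of MAP kinases (1.92), the metal-binding genes Mt1 (1.75) and Mt2 (1.62), and Nfkbia, an inhibitor of NF-kB (0.82). Dusp1 stood at 187 and 186 TPM in Control and 660.3, 751 and 711 TPM in GC, and Mt2 at 2739 and 2738 TPM in Control and 8172, 8707 and 8376 TPM in GC. The GC libraries of both lay above Control with little spread. Members with the lowest values were Sult1a1, a sulfotransferase (-5.23), Mertk, a receptor for dying cells (-5.05), and Pdk4, a brake on pyruvate oxidation (-4.60).

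**Figure D2:**
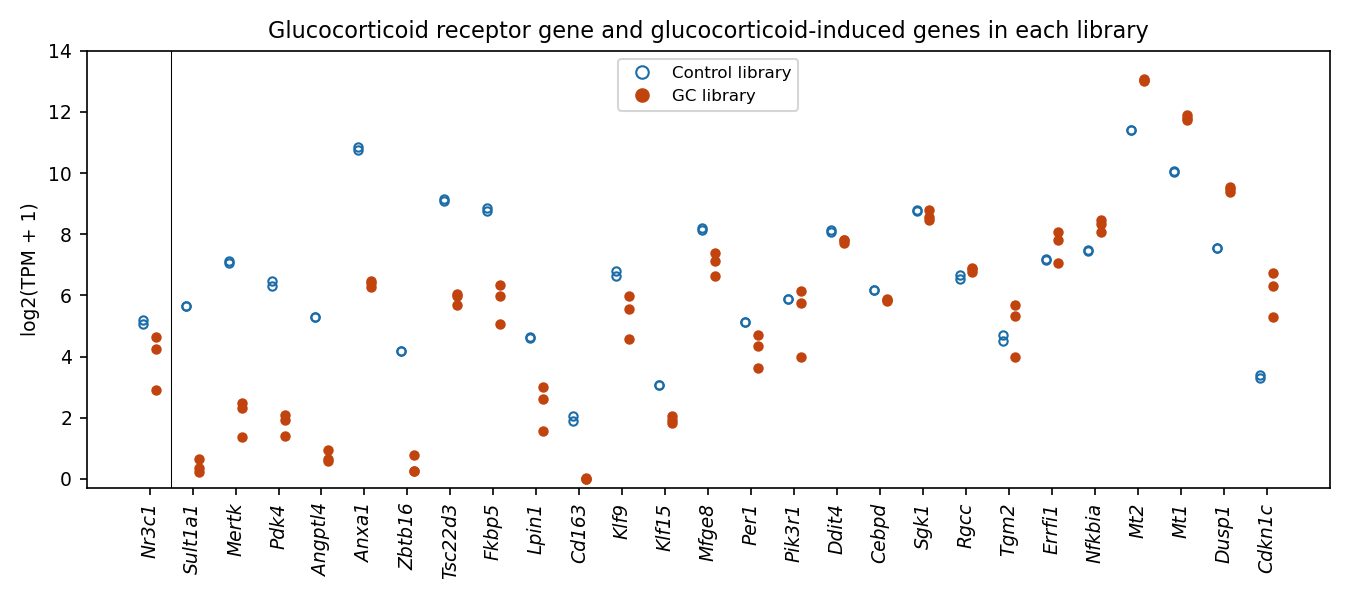
log2(TPM + 1) in each Control library (open circles) and GC library (filled circles) for Nr3c1, left of the line, and the 26 tested glucocorticoid-induced genes, ordered by their change. Sult1a1, Tsc22d3 and Fkbp5 lie lower in every GC library, and Mt1, Mt2, Dusp1 and Cdkn1c higher.

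Antioxidant genes moved in both directions, 17 of 37 rising and 15 falling. The 3 genes of glutathione synthesis named below and Txnrd1 were among the rises, and Gpx1 and Mgst3 among the falls. The transcription factor Nrf2 is known to switch such genes on through a sequence called the antioxidant response element. Below are stretches upstream of the start sites of 3 rising genes, shown since each holds the core of this element, TGACNNNGC, in capitals on either strand. They are from RefSeq on build GRCm38.p6, each written along its gene.
Gclm (chr3:122245393-122245461, plus strand): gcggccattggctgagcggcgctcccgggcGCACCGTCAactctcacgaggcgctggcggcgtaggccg
Prdx1 (chr4:116685436-116685504, plus strand): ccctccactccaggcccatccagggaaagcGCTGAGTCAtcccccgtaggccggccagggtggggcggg
Txnrd1 (chr10:82859084-82859152, plus strand): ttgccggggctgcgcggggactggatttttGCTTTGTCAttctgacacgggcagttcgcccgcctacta
The core was searched on both strands of the 250 bases upstream of each start. It occurred in 10.2% of all 32851 windows of the table, in 11.8% of the windows of tested genes, in 14.9% of those of genes higher on both scalings and in 11.3% of those of genes lower on both. Windows of the antioxidant list held it in 7 of 38 cases (18.4%). That share was not particular to this list. It was higher for immediate early genes (30.3%) and heat shock genes (26.3%), and lower for glucocorticoid-induced genes (16.1%) and collagens (15%). Counted by gene, it was held by 7 of 31 genes of that list and by 1397 of 9928 tested genes. A match is only a match of letters, and these windows cover a small part of a gene's control regions.

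The median of the antioxidant list was 0.25, and scaled counts were 19 higher and 6 lower with median 0.81. Gclc, the catalytic subunit that starts glutathione synthesis, stood at 185 and 174 TPM in Control and 914, 2072 and 1702 TPM in GC. Its partner Gclm, whose upstream bases are shown, stood at 221 and 209 TPM in Control and 465, 439.7 and 453 TPM in GC. Gss, which finishes the synthesis, stood at 40.8 and 40.8 TPM in Control and 188, 216 and 212 TPM in GC. For all 3 the GC libraries lay above both Control libraries, with changes of 3.04 ± 0.36, 1.07 ± 0.13 and 2.30 ± 0.12. Gsr, which reduces oxidized glutathione, changed by 0.83 ± 0.09. On the thioredoxin side, Txnrd1, which recharges thioredoxin, stood at 204 and 191 TPM in Control and 377, 695 and 613 TPM in GC (1.46 ± 0.24, limma adjusted p = 0.0011). Prdx1, a peroxide scavenger, stood at 939 and 1005 TPM in Control and 19651, 10975 and 13797 TPM in GC, highest in GC replicate 1 (3.89 ± 0.21, limma adjusted p = 3.6e-06). Pseudogene copies make the level of Prdx1 uncertain. Prdx6, Gsto1 and Nqo1, which reduce lipid peroxides, dehydroascorbate and quinones, changed by 2.58, 2.46 and 1.48.

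The falls of the list came from other enzymes. Gpx1, the main cytosolic glutathione peroxidase, stood at 1724 and 1994 TPM in Control and 209, 93.97 and 144 TPM in GC (-3.70 ± 0.28, limma adjusted p = 2.0e-05). Mgst3, a membrane glutathione transferase, stood at 129 and 137 TPM in Control and 8.12, 4.06 and 3.38 TPM in GC (-4.51 ± 0.28, limma adjusted p = 7.4e-06). Txnip, which blocks thioredoxin, stood at 449.8 and 438 TPM in Control and 44.3, 55.7 and 54.1 TPM in GC (-3.09 ± 0.12, limma adjusted p = 8.2e-07). No GC library of these 3 reached a Control library. Gpx4, which protects membranes from lipid peroxides, did not pass (-0.23 ± 0.23), nor did the sensor gene Keap1 (-0.03 ± 0.29) or Nfe2l2, which encodes Nrf2 (0.40 ± 0.44, although it passed as higher after median-ratio scaling). Summed over the list the antioxidant genes stood at 12762 to 13131 TPM in Control and 55350.4 to 60319.7 TPM in GC. Most of that gain lay in Hmox1, Prdx1 and Srxn1, so the sum does not describe the whole list. Hmox1, heme oxygenase, stood at 2182 and 2110 TPM in Control and 23008, 25788 and 25238 TPM in GC. Srxn1 stood at 186 and 175 TPM in Control and 4803, 6712 and 6092 TPM in GC.

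Iron genes did not move one way: both ferritin genes rose, and transporters and reductases differed from gene to gene. Ftl1, the ferritin light chain, stood at 4699 and 4669.8 TPM in Control and 17377, 15594 and 15837 TPM in GC (1.79 ± 0.10, limma adjusted p = 3.7e-06). Fth1, the heavy chain, stood at 37695 and 36852 TPM in Control and 133727, 135376 and 132998 TPM in GC, a rise (1.85 ± 0.11, limma adjusted p = 5.0e-06) that quantile normalization sets to 0 since it ties the most abundant gene in every library. Ferritin pseudogenes can share its reads. Slc11a2, which carries iron into the cytosol, stood at 36.6 and 32.8 TPM in Control and 133, 124 and 128 TPM in GC (1.86 ± 0.11, limma adjusted p = 6.0e-06). Slc40a1, the only known iron exporter, stood at 67.6 and 63.2 TPM in Control and 9.63, 7.04 and 8.23 TPM in GC (-2.84 ± 0.22, limma adjusted p = 2.2e-05). The 2 transporter genes moved in opposite directions with no overlap between groups. Steap3, which reduces the iron brought in by transferrin, fell, at 10.2 and 10.2 TPM in Control and 1.55, 1.52 and 1.37 TPM in GC (-2.17 ± 0.22, limma adjusted p = 8.0e-05). The transferrin receptor gene Tfrc did not pass (0.55 ± 0.28, although higher after median-ratio scaling), and Hfe, which regulates hepcidin, fell by 3.36 on the log2 scale. Of the 25 tested iron genes 8 rose and 10 fell (median -0.32, scaled 11 higher and 6 lower with median 0.16), and removing the exon-length trend gave 14 higher and 5 lower. Among 17 metallothionein and zinc transporter genes 4 rose and 6 fell (median -0.12, scaled 7 higher and 3 lower with median 0.38): the metallothioneins Mt1, Mt2 and Mt3 and the zinc exporter gene Slc30a1 (1.16) rose, and the zinc importer genes Slc39a1 (-1.63) and Slc39a13 (-1.59) fell.

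The standard proteasome, which degrades proteins tagged with ubiquitin, rose almost as a whole, while the immunoproteasome fell. The 2 forms share most subunits, and the immunoproteasome swaps its catalytic ones to make peptides for antigen presentation. Of 14 standard core subunit genes 12 rose and none fell (median 1.03), and of 20 cap subunit genes 17 rose and none fell (median 0.97). All 5 genes of the immunoproteasome and its activator fell (median -2.84). Median-ratio scaling gave 13 of 14, 19 of 20 and the same 5 falls. These 3 subgroups were formed after the values were seen. Psmd4, a ubiquitin receptor of the cap, stood at 166 and 172 TPM in Control and 811, 769 and 784 TPM in GC (2.22 ± 0.09, limma adjusted p = 8.2e-07). Psma7, of the core, stood at 199.7 and 221 TPM in Control and 697, 487 and 572 TPM in GC (1.46 ± 0.15, limma adjusted p = 9.1e-05). The GC libraries of both lay above both Control libraries.

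On the immune side Psmb8 stood at 49.2 and 46.7 TPM in Control and 3.57, 2.34 and 2.75 TPM in GC (-3.67 ± 0.16, limma adjusted p = 1.2e-06). Psmb10 stood at 57.4 and 59.6 TPM in Control and 7.33, 4.28 and 5.96 TPM in GC (-3.14 ± 0.19, limma adjusted p = 5.9e-06). Psme1, of the activator, stood at 52.2 and 53.5 TPM in Control and 6.96, 6.36 and 6.29 TPM in GC (-2.84 ± 0.13, limma adjusted p = 1.8e-06). All GC libraries of these 3 lay below Control, and so they did for Tap1, which carries the peptides into the endoplasmic reticulum, at 26.96 and 25.2 against 4.76, 4.45 and 4.68 TPM, and for Tap2 (-2.06). Genes of the presenting molecules differed: the class I genes H2-D1 and H2-Q4 rose (0.73 and 0.82), B2m did not pass (0.04 ± 0.10, though higher after median-ratio scaling), and H2-DMb1, which loads class II molecules, fell by 2.78 on the log2 scale. In the list of dendritic cell and antigen presentation genes 4 of 19 rose and 8 fell (median -0.09, scaled 7 higher and 5 lower with median 0.28).

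**Figure D3:**
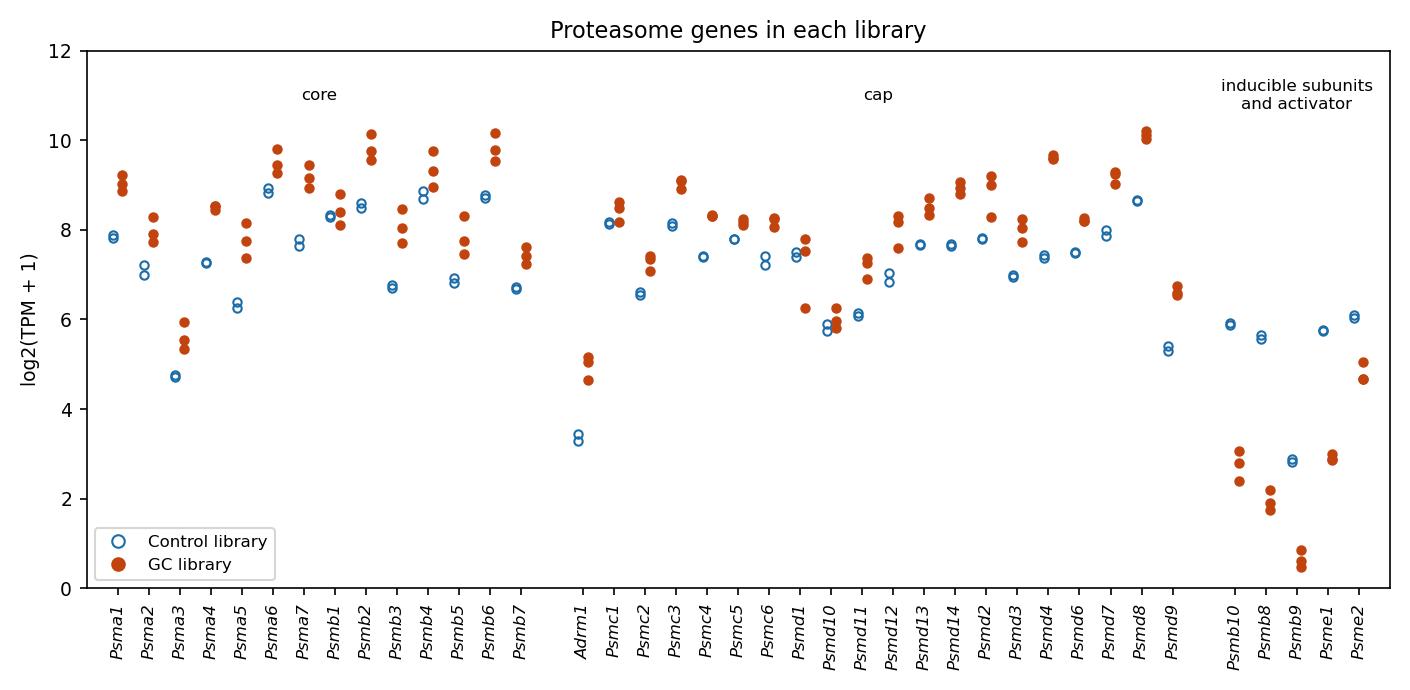
log2(TPM + 1) in each Control library (open circles) and GC library (filled circles) for proteasome genes of the core, of the cap, and of the immunoproteasome with its activator. Most core and cap genes are higher in GC, such as Psmd4, and all 5 inducible genes are lower, with Psmb8 at 46.7 to 49.2 TPM in Control and 2.34 to 3.57 TPM in GC.

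Ubiquitin genes followed the standard proteasome in part. Of 42 tested genes 20 rose and 6 fell (median 0.33), and median-ratio scaling gave 22 higher and 3 lower. Among the rises were Ubb, a polyubiquitin gene (1.46), and Usp14, which trims ubiquitin at the proteasome, at 95.8 and 94.3 against 229.8, 372 and 329.6 TPM (1.67). The lowest member was Ube2l6, the conjugating enzyme of the interferon-induced modifier ISG15, at 26.7 and 28.1 against 2.18, 1.38 and 1.60 TPM (-3.39 ± 0.19, limma adjusted p = 3.9e-06).

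Lysosomes and autophagy showed a further split, between the proton pump and autophagosome proteins on one side and digestive enzymes on the other. The vacuolar pump acidifies the lysosome. Of its 18 tested genes 11 rose and 1 fell (median 0.83, and 1.39 after median-ratio scaling). Atp6v1h stood at 73.3 and 70.8 TPM in Control and 215, 245 and 239.8 TPM in GC (1.68 ± 0.14, limma adjusted p = 2.8e-05). Atp6v0a1, a membrane subunit, was the member that fell, at 201 and 188 TPM in Control and 19.2, 39.6 and 32.4 TPM in GC (-2.70 ± 0.27, limma adjusted p = 7.9e-05). Of 32 lysosomal hydrolase genes, a subgroup formed after the values were seen, 4 rose and 23 fell (median -1.20), and median-ratio scaling gave 6 higher and 16 lower. Lgmn, an asparagine-cutting protease, stood at 1668 and 1556 TPM in Control and 157, 198 and 178 TPM in GC (-3.18 ± 0.14, limma adjusted p = 1.5e-06). Ctsc, which activates serine proteases, stood at 83.2 and 78.9 TPM in Control and 7.96, 7.92 and 7.48 TPM in GC (-3.22 ± 0.13, limma adjusted p = 9.5e-07). Gla, which removes galactose from lipids, went the other way at 60.6 and 59.5 TPM in Control and 182, 249 and 235 TPM in GC (1.86 ± 0.15, limma adjusted p = 2.4e-05).

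Sqstm1, the autophagy receptor p62, stood at 862 and 810.1 TPM in Control and 4149, 5625 and 5125 TPM in GC (2.56 ± 0.15, limma adjusted p = 5.5e-06). Gabarapl1, which coats autophagosomes, stood at 303 and 301 TPM in Control and 1409, 1206 and 1322 TPM in GC (2.11 ± 0.10, limma adjusted p = 2.1e-06). No GC library of either gene fell within the Control range. Of the 6 genes of the Atg8 coat family and Sqstm1, grouped after the values were seen, 5 rose and none fell (median 1.01). The whole list of 39 autophagy genes gave 11 rises and 10 falls (median -0.27, scaled 16 higher and 5 lower with median 0.28), so its balance turned with the scaling. Tfeb, a regulator of lysosome and autophagy genes, fell (-1.25 ± 0.17), as did the membrane-binding gene Wipi1 (-2.23 ± 0.25), while its relative Wipi2 rose (2.06 ± 0.14).

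Chac1, Slc7a11 and Asns, known targets of Atf4, rose, while the lists of amino acid transport and synthesis genes went both ways and no tRNA synthetase gene rose on the deposited scale. Atf4, a transcription factor made when translation slows, is known to act with CEBP proteins at amino acid response elements. The stretches below lie upstream of these 3 genes, chosen for holding TGATGNAA, a core of that element, in capitals on either strand. The stretches come from the same RefSeq table and build and run along each gene.
Chac1 (chr2:119351019-119351086, plus strand): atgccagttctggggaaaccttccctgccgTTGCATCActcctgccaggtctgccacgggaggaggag
Slc7a11 (chr3:50443623-50443709, minus strand): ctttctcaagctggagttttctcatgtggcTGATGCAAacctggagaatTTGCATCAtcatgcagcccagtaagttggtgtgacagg
Asns (chr6:7693210-7693262, minus strand): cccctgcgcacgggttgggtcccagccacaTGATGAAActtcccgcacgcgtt
These letters occurred in 3.45% of all windows, 1.997% of those of tested genes, 2.04% of those of genes higher on both scalings and 2.08% of those of genes lower on both.

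Chac1, which breaks down glutathione, stood at 30.3 and 27.7 TPM in Control and 537, 498 and 538 TPM in GC (4.13 ± 0.11, limma adjusted p = 2.3e-07). Slc7a11, the cystine importer that supplies glutathione synthesis and whose upstream bases hold the letters on both strands, stood at 38.3 and 36.6 TPM in Control and 209.8, 343 and 308 TPM in GC (2.87 ± 0.22, limma adjusted p = 1.9e-05). Asns, asparagine synthetase, stood at 196 and 194 TPM in Control and 373, 380.2 and 389 TPM in GC (0.96 ± 0.09, limma adjusted p = 6.0e-05). The GC libraries of all 3 lay above Control, those of Slc7a11 spread more widely than the others. Slc3a2, the shared heavy chain of several transporters, stood at 992 and 949.8 TPM in Control and 4547, 5299 and 5063 TPM in GC (2.35 ± 0.12, limma adjusted p = 2.2e-06), and its partner Slc7a5 rose by 2.14. Among 21 amino acid transporters 7 rose and 9 fell (median -0.47, scaled 7 higher and 7 lower with median 0.02). Slc7a8, a carrier of neutral amino acids that also pairs with Slc3a2, fell by 4.16 on the log2 scale, and the glutamine carrier gene Slc1a5 by 2.21. Of 20 amino acid synthesis and one-carbon genes 6 rose and 11 fell (median -0.73, scaled 7 higher and 5 lower with median -0.19). Aldh18a1, which starts proline synthesis (-1.42), and Mthfd1l, of mitochondrial one-carbon metabolism (-1.17), were among the falls. The call for Mthfd1l ended under quantile normalization, without Control replicate 1, and after median-ratio scaling without GC replicate 1. None of 22 tRNA synthetase genes rose and 8 fell (median -0.35), whereas median-ratio scaling gave 5 higher and 3 lower (median 0.21).

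The unfolded protein response list held more rises than falls, while the regulators named below moved both ways. Of 30 genes 12 rose and 9 fell (median 0.03, scaled 16 higher and 2 lower with median 0.59). Over all tested genes 16.2% rose and 39.1% fell. Ppp1r15a, which restarts translation, stood at 21.9 and 23.1 TPM in Control and 119, 342 and 254 TPM in GC (3.22 ± 0.39, limma adjusted p = 2.3e-04). Ddit3, a stress transcription factor, stood at 65.2 and 61.2 TPM in Control and 420.2, 521 and 474 TPM in GC (2.88 ± 0.15, limma adjusted p = 2.9e-06). Eif2ak3, the stress sensor PERK, fell, at 23.4 and 23.9 TPM in Control and 3.97, 12.7 and 8.43 TPM in GC (-1.52 ± 0.38, limma adjusted p = 0.0096). The call for Eif2ak3 was lost without Control replicate 1 or 2. Dnajb9, a cochaperone of the endoplasmic reticulum, rose, at 80.5 and 82.96 TPM in Control and 1537, 1528 and 1572 TPM in GC (4.22 ± 0.09, limma adjusted p = 1.0e-07), with no overlap between groups. Hspa5, the main chaperone of the endoplasmic reticulum, stood at 783 and 730.1 TPM in Control and 751, 2238 and 1861 TPM in GC. It did not pass on deposited TPM (0.95 ± 0.42, limma adjusted p = 0.085). On that scale GC replicate 1 of Hspa5 lay near Control. Median-ratio scaling divided the Control libraries by 1.44 and 1.39 and GC replicate 1 by 0.803, so that nearness depended on the scaling. The chaperone gene Hsp90b1 also did not pass (-1.16 ± 0.61). In the heat shock list 8 of 36 rose and 2 fell (median 0.22), but median-ratio scaling gave 20 higher and 0 lower, and leaving out GC replicate 1 gave 19 rises and 2 falls. Hspa1a, an inducible Hsp70 gene, stood at 2.89 and 1.39 TPM in Control and 32.8, 133 and 103 TPM in GC (4.67 ± 0.57, limma adjusted p = 2.3e-04). All GC libraries lay above Control, with GC replicate 1 far below the other two. Dnajb1, its cochaperone, changed by 2.99 ± 0.11.

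Immediate early genes and feedback regulators of MAP kinases, which answer stimuli quickly, were mostly higher for the former and mixed for the latter. Of 30 immediate early genes 19 rose and 8 fell (median 1.22, scaled 21 higher and 5 lower with median 1.71). Ier5, an immediate early gene tied to the heat shock response, stood at 64.6 and 62.6 TPM in Control and 449, 579.6 and 536 TPM in GC (3.01 ± 0.15, limma adjusted p = 2.4e-06). Csrnp1, a transcription factor, stood at 14.5 and 14.8 TPM in Control and 95.4, 105 and 101 TPM in GC (2.69 ± 0.14, limma adjusted p = 2.9e-06). Myc, which drives growth genes, fell, at 45.2 and 40.97 TPM in Control and 7.54, 11.3 and 9.72 TPM in GC (-2.08 ± 0.24, limma adjusted p = 1.7e-04). Each of these had no overlap between groups. Of 18 MAP kinase phosphatase and Sprouty genes 5 rose and 7 fell (median -0.14, scaled 7 higher and 4 lower with median 0.28), with Dusp5 (3.55) and Dusp2 (2.57), nuclear phosphatases, rising with Dusp1, and Dusp6 (-2.65) and Spry1 (-3.18), which restrain ERK signalling, falling. The clock list gave 5 rises and 8 falls of 18 (median -0.35, scaled 8 higher and 7 lower with median 0.16). Dbp, an output gene of the clock, stood at 25.6 and 27.4 TPM in Control and 2.72, 3.69 and 2.15 TPM in GC (-2.85 ± 0.21, limma adjusted p = 1.5e-05), and Nfil3, its repressor counterpart, rose by 1.66.

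**Figure D4:**
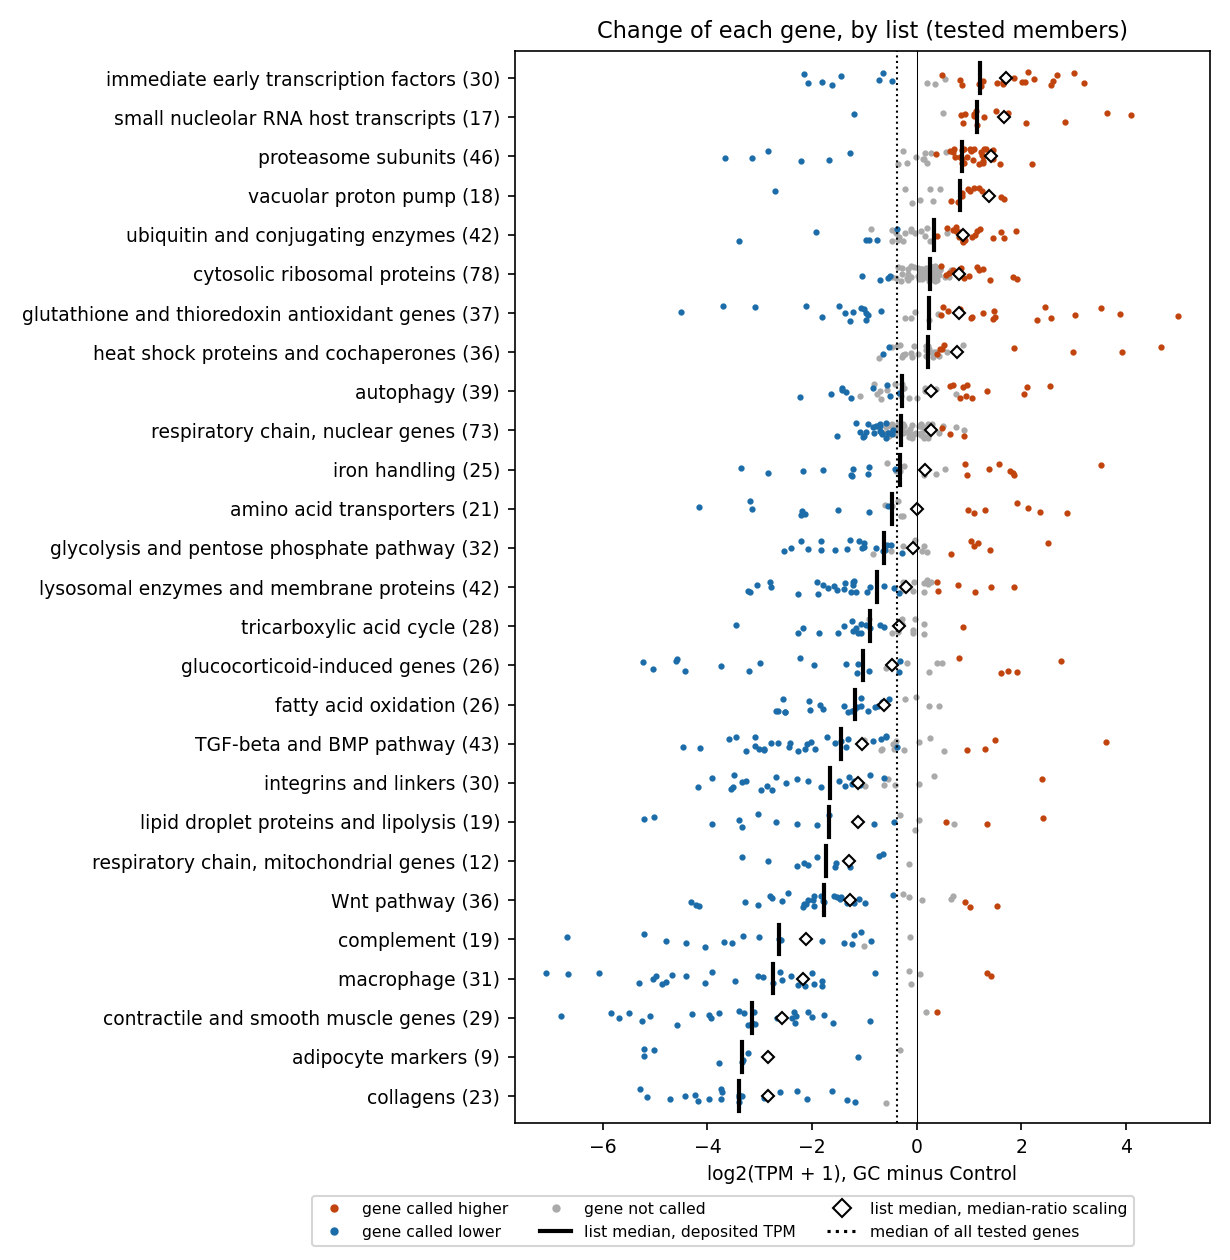
Change of every tested member (log2(TPM + 1), GC minus Control) for selected gene lists, the number tested in brackets, with orange for called higher, blue for called lower and grey for not called. Black bars mark list medians, diamonds the medians after median-ratio scaling, and the dotted line the median of all tested genes at -0.38, so that immediate early genes, proteasome subunits and the proton pump lie to its right and collagens, adipocyte markers and contractile genes to its left.

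Fuel metabolism was lower across several routes. In fatty acid oxidation none of 26 genes rose and 21 fell (median -1.17, scaled 3 higher and 14 lower with median -0.62). Echs1, a hydratase of the cycle, stood at 36.9 and 36.5 TPM in Control and 7.18, 4.40 and 5.01 TPM in GC (-2.55 ± 0.20, limma adjusted p = 2.0e-05). In the tricarboxylic acid cycle 1 of 28 rose and 16 fell (median -0.90, scaled 3 higher and 11 lower with median -0.34), and Idh2, which makes mitochondrial NADPH, stood at 85.7 and 77.2 TPM in Control and 7.61, 5.67 and 6.44 TPM in GC (-3.45 ± 0.15, limma adjusted p = 1.4e-06). Glycolysis and the pentose phosphate pathway gave 6 rises and 19 falls of 32 (median -0.62) but 10 higher and 10 lower after median-ratio scaling. Entry and exit carriers rose: Slc2a1, a glucose importer, stood at 67.2 and 66.5 TPM in Control and 190.0, 167 and 183 TPM in GC (1.41 ± 0.11, limma adjusted p = 2.0e-05), and Slc16a1, which carries lactate, changed by 2.52 ± 0.14. Ldha, which makes lactate, fell, at 583 and 576 TPM in Control and 168, 118 and 129 TPM in GC (-2.07 ± 0.15, limma adjusted p = 1.3e-05). Each of these genes had its GC libraries wholly to one side of Control.

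Nuclear genes of the respiratory chain gave 3 rises and 22 falls of 73 (median -0.29). Their direction turned with the scaling, to 14 higher and 2 lower and a median of 0.27, and without GC replicate 1 the falls numbered 41. The mitochondrially encoded members fell in 11 of 12 cases (median -1.73, and -1.29 after median-ratio scaling). They encode subunits of the same complexes and are copied from the mitochondrial genome. mt-Nd1 stood at 11114 and 10811 TPM in Control and 1292, 941 and 1032 TPM in GC (-3.34 ± 0.16, limma adjusted p = 2.2e-06), while mt-Nd6, copied from the opposite strand, did not pass (-0.14 ± 0.33).

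Of 19 lipid droplet and lipolysis genes 3 rose and 12 fell (median -1.68, scaled 5 higher and 10 lower with median -1.13). The rises were Abhd5, the activator of triglyceride lipase, at 73.1 and 67.2 TPM in Control and 356, 402 and 388 TPM in GC (2.43 ± 0.11, limma adjusted p = 1.7e-06), Dgat2, which makes triglyceride (1.35), and Fitm2, which helps bud droplets (0.55), whose call was lost without either Control library. G0s2, the inhibitor of that lipase, stood at 17.7 and 19.1 TPM in Control and 0.230, 0.0948 and 0.555 TPM in GC (-3.92 ± 0.20, limma adjusted p = 2.5e-06). The lipase gene itself, Pnpla2, did not pass (-0.31 ± 0.21). Abhd5 was thus higher, and G0s2 lower, in all GC libraries. None of 17 fatty acid uptake and binding genes rose and 12 fell (median -1.81, scaled 2 higher and 10 lower with median -1.27). Of 22 adipogenic transcription factors 4 rose and 13 fell (median -1.12, scaled 8 higher and 12 lower with median -0.65). Pparg, the master regulator of fat cells, stood at 6.29 and 8.84 against 2.26, 3.38 and 3.19 TPM, a fall (-1.12 ± 0.21, limma adjusted p = 0.0026) that quantile normalization ended. Gata2, which holds back fat cell formation, stood at 6.16 and 5.91 TPM in Control and 15.5, 29.5 and 24.9 TPM in GC (1.74 ± 0.26, limma adjusted p = 7.6e-04). Among insulin signalling genes 2 of 30 rose and 15 fell (median -0.82, scaled 2 higher and 12 lower with median -0.30), but removing the exon-length trend gave 9 higher and 9 lower (median -0.15). Members include the adaptor gene Irs1 at 10.9 and 10.8 against 0.416, 0.984 and 0.802 TPM (-2.79) and the receptor gene Insr, which did not pass (-0.58 ± 0.37).

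Genes of matrix, contraction and adhesion fell almost throughout. Of 23 tested collagen genes 22 fell and none rose (median -3.40), and summed over the list collagens stood at 3545 to 3804 TPM in Control and 115 to 423 TPM in GC. Col3a1, a fibrillar collagen, stood at 224 and 214 TPM in Control and 3.83, 6.16 and 4.19 TPM in GC (-5.28 ± 0.19, limma adjusted p = 5.8e-07). Of 29 contractile and smooth muscle genes 27 fell (median -3.14), and their sum stood at 23327 to 23881 TPM in Control and 2129 to 3191 TPM in GC. Myl9, a myosin light chain, stood at 1224 and 1187 TPM in Control and 21.2, 21.8 and 23.6 TPM in GC (-5.70 ± 0.10, limma adjusted p = 6.9e-08). Pdlim7, a scaffold protein, was the member that rose (0.39 ± 0.13), a call that ended in 11 of 22 alternatives, among them leaving out Control replicate 1 or 2 or GC replicate 2 or 3. Of 40 matrix glycoprotein genes 37 fell and none rose, and of 30 integrin and linker genes 1 rose and 23 fell, the rise being Itgb3 (2.40), which pairs with the alpha V chain. The proteases Mmp3, Mmp10 and Mmp12 rose among 35 protease and inhibitor genes of which 28 fell.

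Signals that act on stromal cells were lower with few exceptions. Of 43 TGF-beta and BMP pathway genes 4 rose and 29 fell (median -1.44, scaled 7 higher and 23 lower with median -1.04). Bmp2, a bone-forming ligand, stood at 0.903 and 0.866 TPM in Control and 9.91, 36.8 and 29.6 TPM in GC (3.63 ± 0.48, limma adjusted p = 3.6e-04). Tgfb2, a TGF-beta ligand, stood at 34.98 and 34.7 TPM in Control and 0.587, 1.50 and 1.13 TPM in GC (-4.14 ± 0.23, limma adjusted p = 4.0e-06). Tgfbr3, a coreceptor, stood at 37.1 and 39.2 TPM in Control and 1.43, 2.998 and 2.62 TPM in GC (-3.58 ± 0.24, limma adjusted p = 9.8e-06). Bmp2 was higher in each GC library and the other 2 genes lower. Of 36 Wnt pathway genes 3 rose and 28 fell (median -1.77), with the R-spondin genes Rspo2 and Rspo3, which boost Wnt signals, at -4.22 and -4.16. Growth factor ligands and receptors gave 5 rises and 23 falls of 32 (median -1.99). Vegfa, which drives vessel growth, stood at 37.9 and 34.2 TPM in Control and 191, 524 and 408 TPM in GC (3.22 ± 0.39, limma adjusted p = 2.2e-04), lowest of the GC libraries in replicate 1 yet above Control. The EGF receptor ligands Hbegf, Ereg and Areg rose (5.80, 2.13 and 1.15) while the receptor gene Egfr fell (-2.04). Igf1, a growth factor of fat and bone cells, stood at 78.8 and 80.8 TPM in Control and 2.44, 2.44 and 2.13 TPM in GC (-4.60 ± 0.14, limma adjusted p = 3.9e-07).

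Innate immune sensors were lower, and on deposited TPM the lists of cytokines and their receptors held more falls than rises. All 10 toll-like receptor genes, grouped after the values were seen, fell (median -1.98), 9 of them also after median-ratio scaling. Tlr7, which senses RNA in endosomes, stood at 149.6 and 139.9 TPM in Control and 0.925, 2.48 and 2.30 TPM in GC (-5.70 ± 0.28, limma adjusted p = 2.4e-06). Tlr2, which senses bacterial lipoproteins, stood at 33.1 and 30.1 TPM in Control and 2.66, 3.37 and 2.41 TPM in GC (-3.10 ± 0.21, limma adjusted p = 9.8e-06). Downstream genes differed: Nfkbib and Relb, of the NF-kB pathway, rose (2.19 and 1.57), and Rela did not pass (0.49 ± 0.21, though higher after median-ratio scaling). Together the toll-like receptor and NF-kB list gave 5 rises and 17 falls of 36, 10 higher and 13 lower after median-ratio scaling, and 10 rises without GC replicate 1. In the TNF superfamily 8 of 28 rose and 13 fell (median -0.03, scaled 12 higher and 9 lower with median 0.37). Cd40, a receptor for T cell help, stood at 1.55 and 1.24 TPM in Control and 24.98, 15.9 and 18.5 TPM in GC (3.10 ± 0.25, limma adjusted p = 2.7e-05). Tnf itself stood at 4.95 and 4.67 TPM in Control and 33.5, 50.3 and 43.6 TPM in GC (2.88 ± 0.24, limma adjusted p = 2.9e-05). Fas, a death receptor, fell, at 56.02 and 55.9 against 3.30, 3.50 and 3.15 TPM. Groups did not overlap for any of these 3. Of 31 interleukin and receptor genes 5 rose and 17 fell (scaled 6 higher and 13 lower), Il11 rising (2.80) and the blocker Il1rn falling (-3.21). Of 30 chemokine and receptor genes 5 rose and 19 fell (scaled 5 higher and 14 lower). Among these the neutrophil attractants Cxcl1 and Cxcl2 rose (1.46 and 2.13) and Ccl9 fell (-5.60). Rises in both lists were near the 16.2% of all tested genes. Complement genes fell in 17 of 19 cases and none rose (median -2.63).

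Markers of other cell types moved with the same labels, and their part in the results above was not tested. Of 31 tested macrophage genes 2 rose and 26 fell, and the list summed to 40708 to 41252 TPM in Control and 12863 to 13455 TPM in GC. Lyz2, lysozyme, stood at 10917 and 10444 TPM in Control and 6139.7, 5954 and 6315 TPM in GC, a fall (-0.80 ± 0.20, limma adjusted p = 0.010) that ended after median-ratio scaling (-0.23) and without either Control library. Csf1r, the receptor macrophages need to survive, stood at 729.7 and 688 TPM in Control and 15.4, 39.4 and 30.8 TPM in GC (-4.68 ± 0.33, limma adjusted p = 1.3e-05). Cd68, a lysosomal protein and common macrophage marker, went the other way, at 1001 and 956 TPM in Control and 2226, 3028 and 2698 TPM in GC (1.43 ± 0.15, limma adjusted p = 1.2e-04). The macrophage genes Timd4 and Clec4f, of resident liver and peritoneal cells, were listed at 0. Scavenger, Fc and dying-cell receptor genes gave 2 rises and 27 falls of 33 (median -2.22), the oxidized lipoprotein receptor gene Olr1 and the lectin gene Clec4d rising (2.53 and 1.74). Stromal genes fell in 12 of 16 cases and none rose (sum 721 to 764 TPM in Control and 149 to 188 TPM in GC). Osteoblast genes fell in 12 of 13 cases and none rose (sum 6905 to 7212 TPM in Control and 2529 to 2657 TPM in GC). Nearly all of the osteoblast sum was Spp1, osteopontin, at 6566 and 6298 TPM in Control and 2512, 2579 and 2624 TPM in GC. Of 7 osteoclast genes 2 rose and 5 fell, with a sum of 175 to 175 TPM in Control and 117 to 155 TPM in GC.

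Defining genes of blood and vessel lineages were mostly near 0. The neutrophil list summed to 23.1 to 28.4 TPM in Control and 249 to 550.2 TPM in GC, nearly all of it S100a8, a calcium-binding protein, at 19.9 and 25.6 TPM in Control and 548, 248 and 346 TPM in GC (3.94 ± 0.29, limma adjusted p = 1.7e-05). Its partner S100a9 and the granule genes Mpo, Elane and Ltf stayed below 1 TPM, Ltf being listed at 0. S100a8 was thus higher in each GC library while the defining neutrophil genes were near 0. Lymphocyte genes summed to 11.4 to 12.96 TPM in Control and 13.4 to 23.3 TPM in GC, with Ms4a1 listed at 0 in all 5 libraries. In the endothelial list 3 of 4 tested genes fell, and Cldn5 was listed at 0. Hemoglobin gene Hba-a1 and the erythroid factor gene Gata1 were listed at 0, while the platelet chemokine gene Pf4 stood at 257 and 312 TPM in Control and 54.8, 26.96 and 37.3 TPM in GC (-2.86 ± 0.27, limma adjusted p = 6.0e-05).

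Genes of growth arrest and survival did not move one way, and the balance of several lists turned with the scaling. All 3 Gadd45 genes, stress sensors that halt the cell cycle, rose (median 4.42). Gadd45b stood at 53.9 and 55.9 TPM in Control and 1110.2, 1251 and 1221 TPM in GC (4.42 ± 0.11, limma adjusted p = 1.5e-07). Cdkn1a, the inhibitor p21, stood at 710.0 and 685 TPM in Control and 1419.9, 1641 and 1554 TPM in GC (1.14 ± 0.11, limma adjusted p = 7.6e-05). Cdkn2a, which encodes p16 and ARF, stood at 429 and 462 TPM in Control and 48.99, 29.7 and 41.2 TPM in GC (-3.47 ± 0.19, limma adjusted p = 3.6e-06). Cdkn1a was higher and Cdkn2a lower in every GC library. The list of cell cycle inhibitors, p53 and lamins held 9 rises and 12 falls of 30 (median -0.33, scaled 14 higher and 11 lower with median 0.20). Of 38 DNA replication and mitosis genes 5 rose and 21 fell (median -0.87, scaled 7 higher and 16 lower with median -0.52), Mki67, the common marker of dividing cells, not passing (-0.10 ± 0.23). Of 17 Bcl2 family genes 3 rose and 6 fell (median -0.14, scaled 7 higher and 6 lower with median 0.37). Among them the death-promoting Bcl2l11 rose (0.96), and both the protective Bcl2l1 (-2.01) and the death-promoting Bmf (-3.57) fell. Factors secreted by senescent cells gave 16 rises and 22 falls of 43 (median -0.39, scaled 17 higher and 18 lower with median 0.17), with Gdf15, a stress cytokine, at 34.9 and 30.2 against 97.9, 90.2 and 93.6 TPM (1.50).

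Most transcripts that host small nucleolar RNAs rose, while 26 of the 62 tested small nucleolar RNA genes did. Of 17 host transcripts 15 rose and 1 fell (median 1.15, and 1.67 after median-ratio scaling). Snhg3 stood at 21.1 and 19.1 TPM in Control and 359.6, 205 and 247 TPM in GC (3.65 ± 0.23, limma adjusted p = 6.8e-06). Snhg9 stood at 0.516 and 1.44 TPM in Control and 37.2, 25.3 and 34.8 TPM in GC (4.10 ± 0.37, limma adjusted p = 4.9e-05). Gas5, a host that is known to bind the glucocorticoid receptor, stood at 163 and 194 TPM in Control and 401, 282 and 336 TPM in GC (0.92 ± 0.16, limma adjusted p = 0.0014). The GC libraries of all 3 lay above Control. Of 78 cytosolic ribosomal protein genes 14 rose and 4 fell (median 0.25), but median-ratio scaling gave 38 higher and 0 lower, and pseudogene copies make single members uncertain. Translation factors gave 13 rises and 10 falls of 52 (median -0.11, scaled 24 higher and 4 lower with median 0.44). Ribosome assembly genes gave 6 and 7 of 35 (median -0.43, scaled 12 higher and 3 lower with median 0.08), and splicing protein genes 9 and 12 of 52 (median -0.23, scaled 22 higher and 3 lower with median 0.31). Medians of these 3 lists changed sign with the scaling. Eif4ebp1, a brake on translation that Atf4 is known to induce, stood at 165 and 168 TPM in Control and 772, 484 and 561 TPM in GC (1.83 ± 0.18, limma adjusted p = 7.0e-05).

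Some genes were listed at 0 in 1 group. Rnu11, a small nuclear RNA of the minor spliceosome, was listed at 0 in both Control libraries and stood at 201.7, 133 and 169 TPM in GC. Snord13, a small nucleolar RNA, was listed at 0 in Control and stood at 62.6, 15.9 and 19.4 TPM in GC. The limits given above for small RNAs hold for both, so these values may not reflect RNA levels. In the other direction Slc36a2, a brown fat amino acid carrier, stood at 3.58 and 3.22 TPM in Control, and Aqp7, the glycerol channel of fat cells, at 2.13 and 1.57 TPM, both being listed at 0 in all GC libraries. Genes that passed on neither scaling and moved by less than 0.25 on both were led by Stambp, a deubiquitinase. It stood at 8.56 and 8.57 against 4.84, 9.01 and 8.01 TPM (-0.24 ± 0.26). The modest abundance of these genes followed from the rule, since scaling moved abundant genes by more than its limits span. Sgk1, for example, went from -0.18 to 0.39. GC replicate 1 was the lowest library for Stambp, so its agreement between groups is an average over unlike libraries.

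Long genes were lower in GC than short ones, and GC replicate 1 showed the same trend within its group. Over 10 equal bins of 14974 genes by exon length, the median change ran from 0.18 in the shortest bin to -1.09 in the longest, and from 0.48 to -0.60 after median-ratio scaling. GC replicate 1 minus the mean of GC replicates 2 and 3 ran from 0.20 to -0.81. Removing the trend moved the median of all genes to 0.02, close to the scaled one, so its values are set beside scaled values here. Some lists with large changes kept their side, with the proteasome median at 1.27, that of the proton pump at 1.25, that of collagens at -2.62 and that of macrophage genes at -2.22. Other lists moved further. The TGF-beta and BMP median went from a scaled -1.04 to -0.41, with 8 higher and 22 lower. Iron genes went from 0.16 to 0.61, clock genes from 0.16 to 0.60, with 9 higher and 5 lower, and metallothionein and zinc genes from 0.38 to 0.77. Cytosolic ribosomal protein genes, which are short, went from 0.81 to 0.39. The sign differed from the scaled one in nuclear genes of the respiratory chain (-0.12, with 9 higher and 14 lower), secreted factors of senescent cells (-0.19) and antigen presentation genes (-0.07). Antioxidant genes had more falls than after scaling, with 19 higher and 14 lower.

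**Figure D5:**
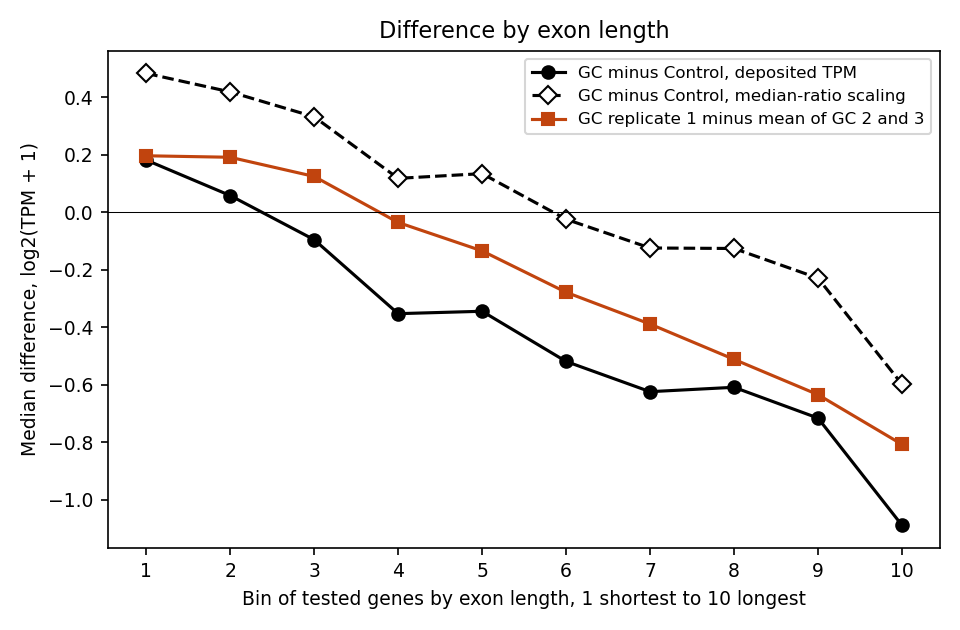
Median difference in log2(TPM + 1) for tested genes in 10 equal bins by exon length, shortest to longest. Circles (GC minus Control) run from 0.18 to -1.09, diamonds (after median-ratio scaling) from 0.48 to -0.60, and squares (GC replicate 1 minus the mean of GC replicates 2 and 3) from 0.20 to -0.81.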

How the data were processed

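RNA of 8 bone marrow adipocyte libraries was measured, of which 5 (2 Control, 3 GC) are compared here. The authors deposited TPM values, 1 column per library, with totals of 999988 to 1000012. The submitters' processing notes name HISAT2 2.1.0, fastp and featureCounts, and the genome build is not given in the sources used here. Starts and ends matched GENCODE M21 (GRCm38) in 97.42% of genes, which gave exon lengths.

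Repeated identifiers were dropped (54232 to 54134 genes) and 27 symbols turned into dates were restored. The 14985 genes that reached 1 TPM in 2 or more libraries were fitted as log2(TPM + 1) in R 4.3.3 using limma 3.58.1 (group means, all 8 libraries, trended prior). Tests were two-sided and adjusted by Benjamini-Hochberg at 0.05. The fit was repeated after median-ratio scaling and tested on simulated data. Tables and figures used Python 3.11.15 with pandas 2.3.3, numpy 2.4.6 and matplotlib 3.10.9. Depth was estimated from TPM steps at M21 lengths. Of low genes, 70.7% to 72.5% in the 5 libraries gave whole reads (tolerance 0.02), so depths are rough.

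The members and lists were chosen with earlier results of these data known, and lists received no test. Genes were named by a rule: fixed genes, the 10 largest gains and losses in TPM, the 3 largest changes per direction in each list with at least 10 TPM and no overlap, the steadiest genes and genes listed at 0 in 1 group. Not all are printed, and other list members were named after their values were seen. Motifs were searched in the RefSeq windows of 9928 tested genes. Title numbers were not shown to pair Control with GC (correlations of deviations -0.16 and -0.16). Deviations of the 2 Control libraries from their mean mirror each other, so these values cannot exclude pairing.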

Additional observations from a re-analysis of the deposited data

How the results depend on the processing

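The balance of rises and falls depended on the scaling: 4112 genes were higher after median-ratio scaling, 4185 after quantile normalization and 4264 after the exon-length trend was removed, against 2428 as deposited (lower 3970, 3911 and 4003 against 5863). Rescaling without mitochondrial and the top 20 genes gave 3030 higher and 4986 lower. Leaving out single libraries gave 1674 to 3043 higher and 4225 to 6298 lower genes, with the fewest higher without Control replicate 2 and the most without GC replicate 1. Median-ratio scaling without GC replicate 1, chosen after seeing the data, gave 4805 and 4394.

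Samples with the same number were not shown to be paired. A replicate block gave 1999 higher and 5146 lower genes by title number and 2071 and 5258 by the number in brackets. Of 288 genes that the naming rule took and that passed, 29 lost the call or turned under at least 1 alternative. Genes named outside that rule, such as Gclc, Ddit3 and Csf1r, are not in this count. Genes that had not passed turned upward once the length trend was removed: Stambp (0.75), Arid4b (1.003), Paxip1 (0.77) and Pogk (0.74). Median-ratio scaling without GC replicate 1 did the same for Stambp (0.39), Paxip1 (0.62) and Pogk (0.66), and the cause was not tested. With 2 Control libraries, leaving out either leaves 1, which is assumed to vary like the other groups. Depth was lowest in GC replicate 1, so low genes there are least precise.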
